A study of Homo sapiens with 12 samples.

Results

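The genes described here are long noncoding RNA genes named as antisense transcripts (symbols ending in -AS1, -AS2 or -AS3) or as long intergenic noncoding RNAs (symbols starting with LINC). Of the 22257 genes in the deposited tables, 189 had such a symbol, and 186 of these were represented by a RefSeq noncoding (NR_) transcript. A gene was kept where at least 10 reads had been counted in 4 or more of the 12 libraries, which left 89 genes, 50 antisense and 39 LINC. The other 97 fell below that minimum, and 26 of them had no count in any library. The members were chosen by their symbols and by these counts, with no regard to differences between groups, and none of the 89 reached the minimum through 1 group only. However, LINC00028 and LINC00235 had 10 or more counts in no library of 1 mM glucose, and DNAJC27-AS1 in none of 10 mM glucose. DNAJC27-AS1 and LINC00235 lay just inside the limit, with 10 or more counts in 5 libraries each, and FAS-AS1 and LINC00087 lay just outside it, with 10 or more in 3 libraries each.

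The RNA came from LN229, a long-established cell line of human glioblastoma, and was total RNA of cells grown to 80% confluence. For 24 hours the cells were kept in RPMI with 10% dialyzed serum and one of 3 carbon supplies, which were glucose at 10 mM, glucose at 1 mM together with acetate at 5 mM, and glucose at 1 mM alone, with 4 libraries in each of these 3 groups. No genetic change separates the groups, and they share the line, the serum and the time. The comparisons ask which transcripts depend on the glucose supply and which respond to acetate when glucose is low.

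Long noncoding RNAs are transcribed and mostly spliced and polyadenylated like messenger RNAs, but are not known for a long reading frame. Antisense transcripts are read from the strand opposite a protein-coding gene, often from the same promoter region, and some are known to raise or lower the output of that gene. LINC genes are named for lying between coding genes, though some members share exon bases with a coding gene. A few serve as precursors of small RNAs, which are cut from the spliced-out introns of snoRNA hosts or from the hairpins of microRNA hosts. A few were later found to encode short proteins. Host transcripts of snoRNAs are known for spliced exons that are short-lived when cells translate actively.

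The depth of a library lay between 24.4 and 27.2 megacounts. On the second principal component of all genes, replicate 3 of 1 mM glucose and replicate 1 of acetate stood apart from the other libraries of their groups. The glioma markers NES, VIM, CD44, EGFR and SOX2 were expressed in every group. At 10 mM glucose NES and SOX2 were higher and VIM, CD44 and EGFR lower than at 1 mM, and OLIG2 was lower too, at 8.47 CPM (counts per megacount) against 24.9 CPM. GFAP averaged 0.848 CPM at 10 mM glucose, 1.14 CPM with acetate and 0.98 CPM at 1 mM glucose. The 7 immune, endothelial and epithelial markers summed to between 0.271 and 0.653 CPM at 10 mM, 0.267 and 0.492 CPM with acetate, and 0.468 and 1.34 CPM at 1 mM, and none passed the filter for testing. The neuron marker SNAP25 averaged 16.5, 11.1 and 8.95 CPM in the same order, while RBFOX3 stayed below 0.4 CPM in each group mean. Of all counts, the members held 0.118 ± 0.00103% in the 10 mM group, 0.143 ± 0.0123% in the acetate group and 0.143 ± 0.00448% in the 1 mM group (SD, n = 4 each).

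Current RefSeq names were found for 87 of the 89 genes, and 28 of them are now listed under another symbol. RefSeq (GRCh38.p14) classes 71 as lncRNA and 5 as antisense RNA. Another 7 are now listed as protein-coding genes and 4 as transcribed pseudogenes. Of the 7, 6 were matched by an older symbol and not by the counted transcript, which need not be coding itself. Among the 7 are LINC00493 (now SMIM26) and LINC00116 (now MTLN), which encode small mitochondrial proteins, and LINC00085, now under SPACA6. Per kilobase of transcript, C17orf76-AS1 (now SNHG29) had the highest level of the 74 members with a known length, at 277.3 CPM per kilobase in the 10 mM group, 518.5 in the acetate group and 546.7 in the 1 mM group. ZNFX1-AS1 (now ZFAS1) came next, at 75.3, 187.3 and 210.6 CPM per kilobase, and LINC00493 followed at 55.6, 105.1 and 111.6 CPM per kilobase. These 3 members were lower at 10 mM glucose. HNRNPU-AS1 and PCNA-AS1, which have no length here, averaged 96.6 and 68.1 CPM over the 12 libraries, above the 45.8 CPM of LINC00493, and both were higher at 10 mM glucose.

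At 10 mM glucose, 57 of the 88 members that could be tested differed from 1 mM glucose (edgeR quasi-likelihood F test, Benjamini-Hochberg adjusted p under 0.05 over 14416 genes). Of these, 30 were higher and 27 lower at 10 mM glucose, and LINC00235 was too low to test. Over all genes tested 67.5% were called, 33.7% higher and 33.8% lower, so the members' 64.8% lay near the background. The 50 antisense genes had 15 higher and 14 lower, and the 38 tested LINC genes 15 higher and 13 lower. The other 1204 noncoding (NR_) genes leaned downward at 10 mM, with 263 higher and 403 lower, while the 13122 coding (NM_) genes had 4560 higher and 4441 lower. The members' median log2 fold change was 0.09, against 0.00 over all genes, and their median absolute change was 0.51, against 0.38. At least 1.5-fold changes were called in 38 members (31.5% of all genes) and at least 2-fold changes in 16 (13.7% of all genes). The 4 libraries of one group lay clear of the 4 of the other in 49 members, against 61.5% of all genes. Scaling by library totals in place of TMM shifted the median of all genes by 0.14 on the log2 scale and gave 40 members higher and 19 lower, so the split between directions is stated relative to the median gene. In bulk RNA, fewer cells making a transcript and less of it per cell cannot be told apart.

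**Figure D1:**
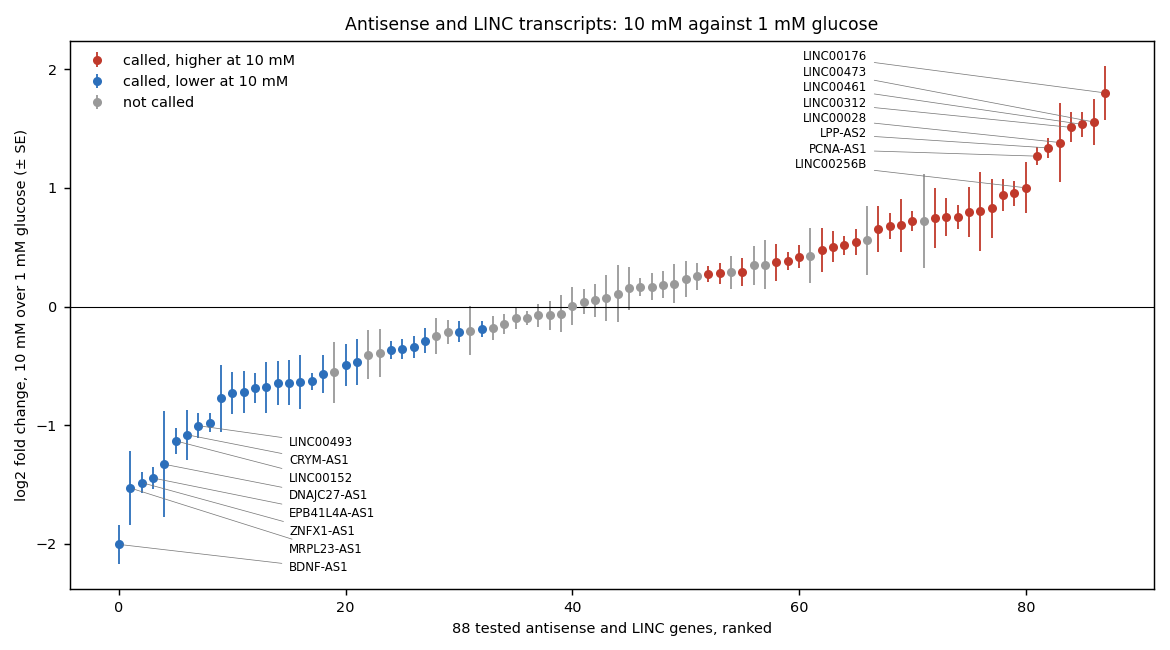
Log2 fold change of the 88 tested antisense and LINC genes, 10 mM over 1 mM glucose, ranked from lowest to highest, with bars for the standard error; red and blue points mark the 30 genes called higher and the 27 called lower, grey points the rest. The values run from -2.004 for BDNF-AS1 to 1.80 for LINC00176, and the 8 lowest and 8 highest genes are named.

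All 4 members that carry small nucleolar RNAs by the GENCODE annotation fell at 10 mM glucose, where 33.8% of all genes tested were lower. SNHG1 and SNHG12, hosts of small nucleolar RNAs outside the members, were not called. Such RNAs guide chemical marks on ribosomal and spliceosomal RNA, and the 4 members are ZNFX1-AS1 (SNORD12, SNORD12B and SNORD12C), C17orf76-AS1 (SNORD49A, SNORD49B and SNORD65), EPB41L4A-AS1 (SNORA13) and LINC00338, now SNHG20 (SCARNA16). ZNFX1-AS1 had 72.5, 74.7, 77.7 and 78.7 CPM at 10 mM glucose, 227, 188, 170 and 170 CPM with acetate, and 209, 194, 225 and 222 CPM at 1 mM glucose. The 10 mM libraries lay far below all 8 others, and the acetate and 1 mM libraries overlapped. Its log2 fold change for glucose was -1.48 ± 0.09 (SE, adjusted p = 1.4e-09), a 2.8-fold decrease. EPB41L4A-AS1 averaged 7.89 ± 0.322 CPM at 10 mM glucose, 19.95 ± 2.57 CPM with acetate and 21.5 ± 1.75 CPM at 1 mM glucose (SD, n = 4 each), and fell 2.72-fold (adjusted p = 4.7e-09). C17orf76-AS1 had 277, 275, 284 and 291 CPM at 10 mM against 550, 520, 600 and 551 CPM at 1 mM, a 1.97-fold decrease (adjusted p = 6.5e-08). LINC00338 fell by 0.37 on the log2 scale, with 22.8 ± 1.26 CPM at 10 mM and 29.5 ± 2.32 CPM at 1 mM (adjusted p = 0.00056). Of its exon bases, 19.4% lie in exons of the coding gene SEC14L1 on the same strand, so reads there may belong to either gene. None of the 4 was called for acetate, although ZNFX1-AS1 without replicate 1 of acetate had a log2 change of -0.27 (adjusted p = 0.0083), against -0.17 with it (adjusted p = 0.2).

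BDNF-AS1, the antisense transcript of the neurotrophin gene BDNF, had the lowest fold change of all members. It had 0.968, 1.31, 1.24 and 0.946 CPM at 10 mM glucose, 3.77, 3.51, 4.50 and 3.36 CPM with acetate, and 5.62, 4.07, 4.02 and 4.28 CPM at 1 mM glucose. Every 10 mM library lay below every other library, and the log2 fold change was -2.004 ± 0.16 (adjusted p = 5.1e-08). LINC00493, which encodes the mitochondrial protein SMIM26, fell 2.01-fold, with 28.1 ± 2.04 CPM at 10 mM, 53.1 ± 9.03 CPM with acetate and 56.3 ± 4.61 CPM at 1 mM (adjusted p = 7.9e-07). LINC00116, the other gene of a small mitochondrial protein, did not pass the test, at 12.3 CPM at 10 mM and 14.5 CPM at 1 mM (adjusted p = 0.17). Lower counts carried CRYM-AS1, which RefSeq now lists as a pseudogene, at 0.776 ± 0.111 CPM at 10 mM and 1.65 ± 0.329 CPM at 1 mM (2.11-fold lower, adjusted p = 0.00035). MRPL23-AS1 also fell, with 10, 15, 3 and 8 counts at 10 mM against 25, 26, 29 and 16 counts at 1 mM (adjusted p = 0.00049). LINC00326, LINC00471 and LINC00324, which have no known role here, fell 1.65-fold, 1.56-fold and 1.48-fold, and their mean levels at 1 mM were 1.21 to 1.82 CPM.

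LINC00152 and LINC00346 were the members that fell with glucose and also with acetate. LINC00152 (now CYTOR), a mostly cytoplasmic RNA that is raised in many tumours, had 18.9, 18.3, 19.9 and 16.7 CPM at 10 mM glucose, 35.9, 27.4, 26.8 and 25.6 CPM with acetate, and 37.2, 36.1, 46.8 and 41.7 CPM at 1 mM glucose. The 3 groups did not overlap, with acetate between the other 2, and only its replicate 1 came close to the 1 mM libraries. The log2 fold change was -1.13 ± 0.11 for glucose (adjusted p = 3.6e-07) and -0.48 ± 0.11 for acetate (adjusted p = 0.0083). Its reads may be shared with MIR4435-2HG, a near-identical copy, so the level is that of both as far as the counting split them. LINC00346 (now PRECSIT) had 28.9, 27.7, 28.6 and 28.3 CPM at 10 mM, 29.3, 34.6, 34.5 and 33.6 CPM with acetate, and 45.4, 48.0, 38.6 and 43.4 CPM at 1 mM. Again the groups kept apart, with log2 fold changes of -0.63 ± 0.07 for glucose (adjusted p = 2.1e-06) and -0.41 ± 0.07 for acetate (adjusted p = 0.0018). Both acetate calls held in all 22 alternative fits, although neither acetate change reached 1.5-fold, so neither is called with that minimum.

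LINC00460, which has been described as promoting growth in several carcinomas, did the opposite with acetate. It had 10.3, 8.39, 8.56 and 8.05 CPM with acetate, above every library of 1 mM glucose (7.003, 7.39, 6.86 and 7.34 CPM), with a log2 fold change of 0.30 ± 0.08 (adjusted p = 0.025, and 0.083 without the 2 libraries that stood apart). At 10 mM glucose it had 6.81, 6.39, 6.71 and 6.77 CPM and was not called (adjusted p = 0.31). The promoter windows of these 3 genes are shown because each holds 2 copies of the AP-1 motif TGAGTCA, to which FOS and JUN proteins bind and which reads TGACTCA on the other strand. They run from 250 bases before to 50 bases after the RefSeq start on GRCh38.p14, which is not the build of the counts, and the capitals mark the motif. The windows lie at chr2:87455177-87455476 on the plus strand, chr13:110870259-110870558 on the minus strand and chr13:106376314-106376613 on the plus strand.
LINC00152: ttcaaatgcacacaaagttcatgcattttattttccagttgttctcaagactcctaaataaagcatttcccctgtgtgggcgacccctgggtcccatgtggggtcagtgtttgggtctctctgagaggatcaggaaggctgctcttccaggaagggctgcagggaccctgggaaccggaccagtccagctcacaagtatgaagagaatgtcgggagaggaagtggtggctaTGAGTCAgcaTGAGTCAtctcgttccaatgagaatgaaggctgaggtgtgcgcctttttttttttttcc
LINC00346: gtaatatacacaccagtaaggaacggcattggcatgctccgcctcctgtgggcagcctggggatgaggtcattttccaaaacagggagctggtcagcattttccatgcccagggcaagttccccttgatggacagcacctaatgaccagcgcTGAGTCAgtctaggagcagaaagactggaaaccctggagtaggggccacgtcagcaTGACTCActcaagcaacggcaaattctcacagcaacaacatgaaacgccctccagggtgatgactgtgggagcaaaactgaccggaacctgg
LINC00460: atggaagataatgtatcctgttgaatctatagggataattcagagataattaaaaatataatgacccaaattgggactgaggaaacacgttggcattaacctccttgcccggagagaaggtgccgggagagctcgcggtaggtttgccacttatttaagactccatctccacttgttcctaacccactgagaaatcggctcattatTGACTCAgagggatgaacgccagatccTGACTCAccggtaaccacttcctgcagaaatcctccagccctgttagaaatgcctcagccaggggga
Of the 58 members whose window could be searched, 5 (8.62%) held the motif at least once, against 4.92% of all 27305 windows. LINC00152, LINC00346 and LINC00460 were the searched members with 2 or more copies, a state found in 0.212% of all windows. The AP-1 motif was searched after these windows had been read. The motif stands in genes that moved in both directions, and a match is a description of letters and not of binding.

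LINC00473, LINC00461, LINC00312 and LINC00176 had the highest fold changes for glucose, between 2.85-fold and 3.48-fold. LINC00473, known as a target of the cAMP-responsive factor CREB, had 10.1, 9.29, 9.08 and 10.5 CPM at 10 mM glucose, 2.77, 5.53, 5.56 and 5.41 CPM with acetate, and 3.42, 4.35, 2.30 and 3.22 CPM at 1 mM glucose. The 10 mM libraries were the highest 4, and the acetate libraries split, with replicate 1 inside the 1 mM range and the other 3 above it. Its log2 fold change was 1.56 ± 0.19 for glucose (adjusted p = 5.3e-06) and 0.54 ± 0.21 for acetate, which was not called (adjusted p = 0.1). Without replicate 1 of acetate the acetate change was 0.73 (adjusted p = 0.0043). Its promoter window (chr6:165987990-165988289, minus strand) is shown for its 2 copies of the CRE half-site TGACGT, which reads ACGTCA on the other strand, in capitals.
LINC00473: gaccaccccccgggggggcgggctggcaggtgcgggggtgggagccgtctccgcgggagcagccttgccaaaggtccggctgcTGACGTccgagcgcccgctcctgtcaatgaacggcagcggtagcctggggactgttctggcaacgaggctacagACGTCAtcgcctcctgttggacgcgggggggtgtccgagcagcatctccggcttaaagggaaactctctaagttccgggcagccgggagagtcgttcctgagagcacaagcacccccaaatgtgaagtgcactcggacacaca
At least 1 copy stood in 7 of the 58 members' windows (12.1%) and in 8.32% of all windows. The full site TGACGTCA, which contains the half-site on both strands, was in 2 members' windows (DNAJC27-AS1 and LINC00265) and not in this one.

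LINC00461, the host of microRNA miR-9 at the MIR9-2 locus and abundant in neural tissue, had 13.1, 11.3, 10.5 and 11.2 CPM at 10 mM glucose, 4.77, 5.00, 4.09 and 4.57 CPM with acetate, and 3.99, 3.94, 3.39 and 4.57 CPM at 1 mM glucose. Every 10 mM library lay above every other library, at a log2 fold change of 1.53 ± 0.10 (adjusted p = 6.7e-09). The GENCODE gene body of LINC00085 holds MIR99B, MIRLET7E and MIR125A on the same strand. Whether the counted transcript spans them was not checked. LINC00085 had 5.65, 6.10, 5.72 and 5.97 CPM at 10 mM, 4.21, 4.08, 3.90 and 3.40 CPM with acetate, and 3.05, 3.61, 2.69 and 2.73 CPM at 1 mM. It was 1.94-fold higher with glucose (adjusted p = 1.4e-06), and the acetate libraries lay between, overlapping those of 1 mM. LINC00478, whose gene body holds the related MIR99A, MIRLET7C and MIR125B2, was not called, at 0.822 CPM at 10 mM and 1.09 CPM at 1 mM (adjusted p = 0.097). The mature microRNAs were not analysed here, and the host transcript does not measure them. RefSeq sequences are shown for microRNAs whose genes lie within the gene bodies of LINC00461 and LINC00085, with the seed (bases 2 to 8) in capitals. The 4 seeds differ.
hsa-miR-9-5p (in LINC00461): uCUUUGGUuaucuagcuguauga
hsa-miR-99b-5p (in LINC00085): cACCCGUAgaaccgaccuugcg
hsa-let-7e-5p (in LINC00085): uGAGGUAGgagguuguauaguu
hsa-miR-125a-5p (in LINC00085): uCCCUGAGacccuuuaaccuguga

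LINC00312 had 5.07, 4.97, 4.81 and 5.31 CPM at 10 mM glucose against 1.67, 1.72, 1.44 and 2.24 CPM at 1 mM glucose (2.85-fold higher, adjusted p = 7.2e-08). LINC00176, now listed as the coding gene C20orf204, had 3.06, 3.09, 2.73 and 2.44 CPM at 10 mM against 0.896, 0.698, 0.468 and 1.18 CPM at 1 mM (3.48-fold higher, adjusted p = 6.6e-06). In both genes every 10 mM library exceeded every 1 mM and acetate library. LINC00256B and LINC00256A (now FAM225B and FAM225A) are near-identical copies whose reads may be shared, and were 2.00-fold and 1.74-fold higher at 10 mM (adjusted p = 0.00084 and 0.0038). LINC00094 (now BRD3OS) was 1.31-fold higher, with 31.7 ± 1.55 CPM at 10 mM and 24.3 ± 2.26 CPM at 1 mM (adjusted p = 0.00032).

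**Figure D2:**
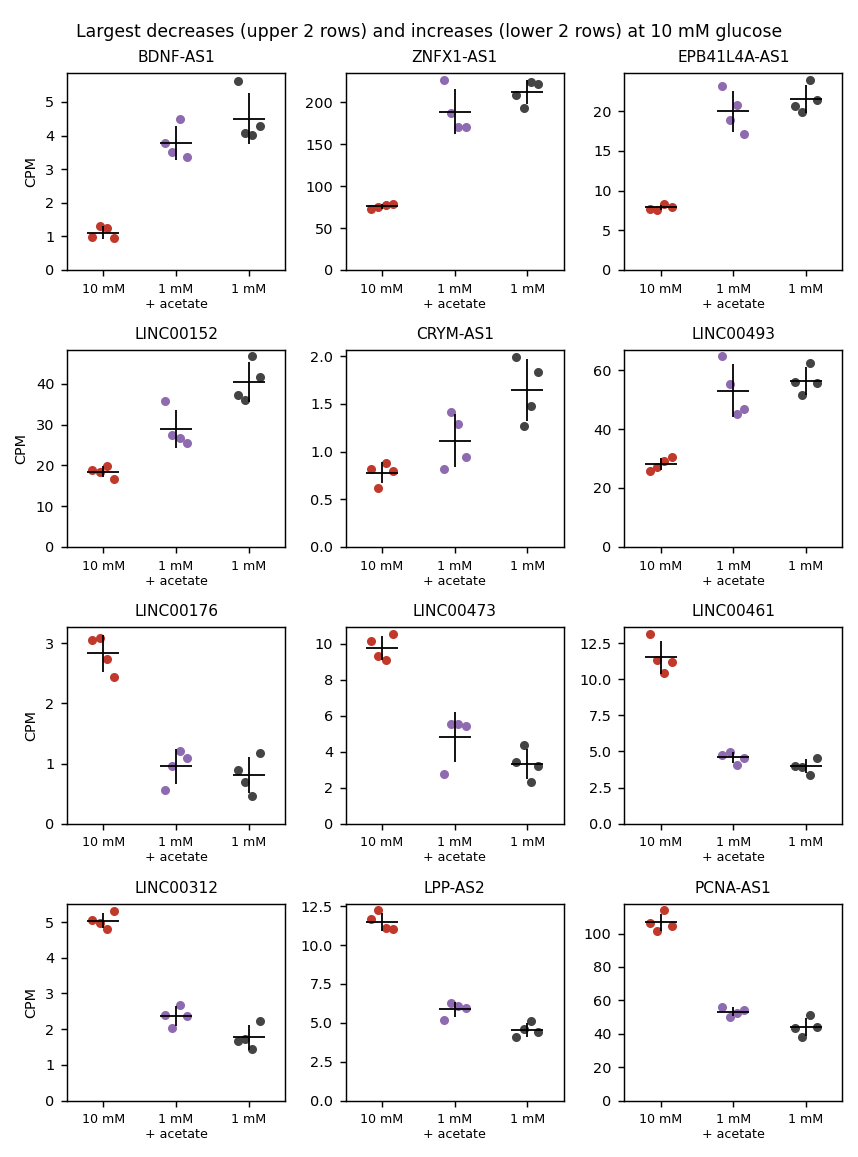
Level in each library (points, CPM on a linear axis) with the group mean and SD (black bars) of the 6 members with the lowest and the 6 with the highest log2 fold change for glucose among those the naming rule chose; each panel has 10 mM glucose, 1 mM glucose with acetate and 1 mM glucose from left to right. In all 12 panels the 10 mM libraries lie clear of the 1 mM libraries, and the acetate libraries have a mean nearer to that of 1 mM than of 10 mM glucose in all but LINC00152 and CRYM-AS1.

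Of the 50 antisense members, 49 could be set beside a sense gene that was tested too (CRYM, at 0.0684 CPM over 12 libraries, was too low). For glucose the antisense gene was called higher in 15 of the 49 pairs and lower in 13, and the sense gene higher in 17 and lower in 13. ST7, called lower, is counted in 2 of these pairs, with ST7-AS1 and with ST7-AS2. Over all genes tested 67.5% were called. Both genes were called in 15 pairs, the antisense gene alone in 13, the sense gene alone in 15 and neither in 6. Whether both were called more often than in unlinked genes was not tested. Where both were called, 13 pairs moved the same way (10 higher and 3 lower) and 2 moved oppositely. The 10 include HNRNPU-AS1 beside HNRNPU. RefSeq now gives the first symbol as an older name of the second, so this pair may be 1 gene. It is also in the correlations over all pairs. Across the 49 pairs the glucose fold changes of antisense and sense genes had a Spearman rho of 0.42 and a Pearson r of 0.47. These are descriptions over genes of the same libraries, which share depth and scaling. Antisense and sense exons overlap in 33 of the 44 pairs that could be placed on the GENCODE annotation, and 14 share at least 20% of the antisense exon bases. The strand setting of the libraries is not given in the sources used here, so reads over shared exon bases cannot be told apart between the 2 genes. In the 11 placed pairs with no shared exon bases rho was 0.15 and r 0.29, and in the 33 with shared bases rho was 0.45 and r 0.46. In the 14 with at least 20% shared, which are part of the 33, rho was 0.19 and r -0.012. These sets are small and leave out the pairs that were not placed, PCNA-AS1 among them. What part shared reads have in the likeness of the pairs was not tested.

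**Figure D3:**
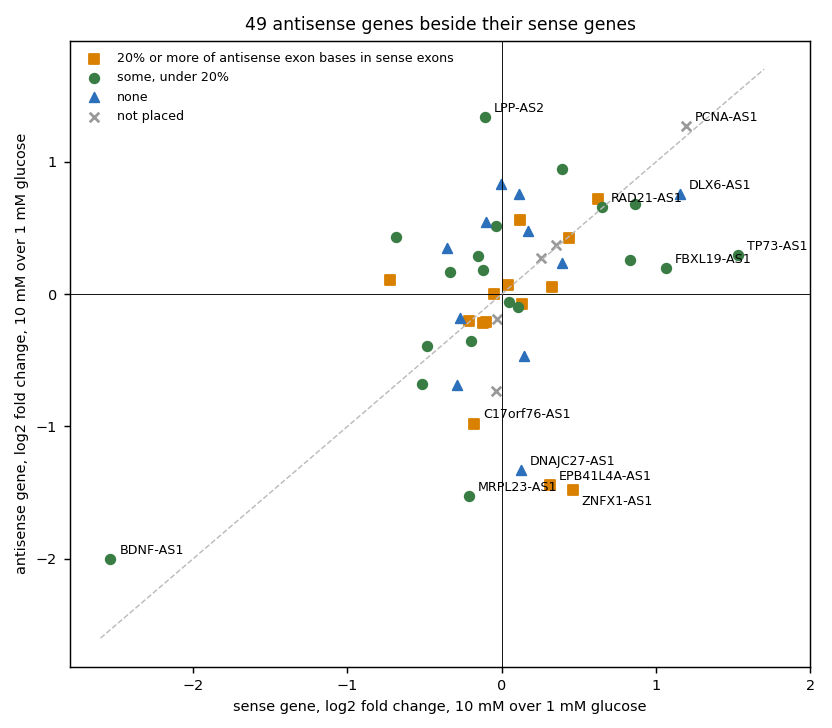
Log2 fold change of 49 antisense genes (vertical axis) against that of their sense genes (horizontal axis), both 10 mM over 1 mM glucose, with the marker giving the share of antisense exon bases that lies in sense exons and the dashed line equal change. BDNF-AS1 and PCNA-AS1 lie near the line at its lower and upper end, while ZNFX1-AS1 and EPB41L4A-AS1 lie in the lower right part, lower where the sense gene is higher.

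The ratio of antisense to sense counts within a library does not depend on the scaling between libraries, and was compared for the 18 pairs named in the text. With 4 libraries against 4 the smallest two-sided p of the exact permutation test is 0.0286, which 12 of the 18 glucose comparisons reached. Most of these pairs were named for the glucose change of the antisense gene itself, so these ratios partly restate that choice and the count of 12 is a description. ZNFX1-AS1 had 1872, 2059, 2132 and 2164 counts at 10 mM glucose beside 2657, 2699, 2608 and 2639 for ZNFX1, an antiviral RNA helicase. At 1 mM glucose it had 5128, 4715, 5759 and 5445 counts beside 1945, 1897, 1495 and 1705 for ZNFX1. The antisense gene was thus the lower of the pair in all 4 libraries at 10 mM and the higher in all 4 at 1 mM, and the log2 ratio changed by -1.95 (exact permutation p = 0.0286). EPB41L4A-AS1 did likewise, with 199, 209, 228 and 219 counts beside 335, 349, 361 and 349 for EPB41L4A at 10 mM, against 508, 485, 614 and 525 beside 229, 262, 262 and 273 at 1 mM (log2 ratio change -1.76, exact permutation p = 0.0286). The sense genes rose, by 0.46 ± 0.12 for ZNFX1 (adjusted p = 0.0042) and 0.31 ± 0.07 for EPB41L4A (adjusted p = 0.00066) on the log2 scale. In these pairs 24.7% and 55.9% of the antisense exon bases lie in sense exons.

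Other pairs moved together. PCNA-AS1, named for its place opposite PCNA, the sliding clamp of DNA replication, had 107, 102, 114 and 104 CPM at 10 mM glucose, 56.1, 49.98, 52.6 and 54.1 CPM with acetate, and 43.5, 38.3, 51.6 and 43.8 CPM at 1 mM glucose. Its glucose change of 1.27 ± 0.08 (adjusted p = 2.4e-09) stood beside 1.19 ± 0.08 for PCNA (adjusted p = 6.1e-09). PCNA-AS1 could not be placed on the GENCODE annotation, so how far it shares exon bases, and reads, with PCNA is not known here. The changes of PCNA-AS1 and PCNA are therefore not read as independent, and what part shared reads have in them was not tested. The log2 ratio differed by 0.07 (exact permutation p = 0.286), with -1.85 ± 0.0635 at 10 mM and -1.92 ± 0.0932 at 1 mM. Its window (chr20:5119336-5119635, plus strand) is shown for its matches to 3 motifs, all in capitals. They are an E2F form spelled TTTGGCGC, which reads GCGCCAAA on the other strand, an E2F form spelled TTCCCGCC, which reads GGCGGGAA there, and the CCAAT box, which reads ATTGG there.
PCNA-AS1: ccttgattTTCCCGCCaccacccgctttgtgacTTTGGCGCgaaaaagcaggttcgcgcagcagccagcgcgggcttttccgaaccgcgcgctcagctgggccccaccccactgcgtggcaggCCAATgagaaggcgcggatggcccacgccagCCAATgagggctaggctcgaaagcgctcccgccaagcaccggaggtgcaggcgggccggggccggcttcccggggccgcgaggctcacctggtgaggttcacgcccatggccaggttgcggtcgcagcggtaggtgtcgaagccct
The first E2F form stood in 1 of the 58 members' windows and 0.659% of all windows, the second in 2 members' windows (the other was ZNFX1-AS1) and 3.18% of all. CCAAT stood in 24 members' windows (41.4%) and in 35.7% of all. BDNF fell with BDNF-AS1 and more steeply, by 2.54 on the log2 scale, and the log2 ratio of antisense to sense counts was higher by 0.53 at 10 mM glucose (exact permutation p = 0.0286). HNRNPU-AS1, whose symbol RefSeq now gives as an older name of HNRNPU itself, followed HNRNPU, an RNA-binding nuclear scaffold protein, with changes of 0.27 and 0.26 (exact permutation p of the ratio 0.6). HAS2-AS1, described as supporting transcription of the hyaluronan synthase gene HAS2, had 1.14 ± 0.343 CPM at 10 mM and 0.706 ± 0.0843 CPM at 1 mM (1.61-fold higher, adjusted p = 0.014) beside a HAS2 change of 0.86. Its groups overlapped, and the call was lost without replicate 1 of 10 mM glucose (adjusted p = 0.0545). The ratio change of -0.22 had an exact permutation p of 0.429. TRAF3IP2-AS1 fell by 0.69 beside a fall of 0.29 in TRAF3IP2, an adaptor of interleukin-17 receptors (exact permutation p of the ratio 0.114). Where the transcript with the highest total stands for each gene, another TRAF3IP2-AS1 transcript is measured, which changed by 0.00798 on the log2 scale (adjusted p = 0.955).

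In a further group the antisense gene changed and its partner did not pass the test, or changed much less. LPP-AS2 had 11.7, 12.2, 11.1 and 11.03 CPM at 10 mM glucose, 5.17, 6.30, 6.06 and 5.97 CPM with acetate, and 4.07, 4.60, 5.11 and 4.41 CPM at 1 mM glucose. It was 2.53-fold higher with glucose (adjusted p = 4.9e-09), whereas LPP, a focal adhesion protein gene, had a change of -0.11 ± 0.16 (adjusted p = 0.56). Their log2 ratio rose by 1.42 (exact permutation p = 0.0286). THAP7-AS1 was 1.69-fold higher, at 6.37 ± 0.239 CPM at 10 mM and 3.77 ± 0.514 CPM at 1 mM, beside 0.11 ± 0.10 for the repressor gene THAP7, which starts within 1 kb on the other strand and shares no exon bases with it. GNAS-AS1, from the imprinted GNAS locus, had 29, 23, 30 and 29 counts at 10 mM against 10, 17, 19 and 11 at 1 mM, while GNAS, the stimulatory G protein subunit, changed by -0.01 (ratio change 0.85, exact permutation p = 0.0286). H1FX-AS1 rose by 0.94 ± 0.13 (adjusted p = 2.1e-05), beside 0.39 ± 0.11 for the linker histone gene H1FX. The reverse held for TP73-AS1, with a change of 0.29 (adjusted p = 0.037, not under 0.05 in 10 of 22 alternatives) beside 1.53 ± 0.13 for TP73, a p53 relative, and a log2 ratio change of -1.23 (exact permutation p = 0.0286). TTC28-AS1 was not called for glucose (0.25, adjusted p = 0.066) while TTC28 rose by 0.83 (ratio change -0.58, exact permutation p = 0.0286). C17orf76-AS1 fell by 0.98 beside -0.18 ± 0.12 for C17orf76, and MRPL23-AS1 by 1.53 beside -0.21 ± 0.11 for MRPL23, with ratio changes of -0.80 and -1.45 (exact permutation p = 0.0286 each). ZEB1-AS1 and FBXO22-AS1 fell by 0.36 and 0.19, beside -0.20 for the mesenchymal factor ZEB1 and -0.03 for FBXO22, neither of which was called. The ratio of ZEB1-AS1 to ZEB1 changed by -0.17, which did not pass (exact permutation p = 0.371). The FBXO22-AS1 call (adjusted p = 0.021) was lost with library totals and without either replicate 2 of 10 mM or replicate 3 of 1 mM glucose (adjusted p up to 0.561).

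Adding acetate at 1 mM glucose changed 11 of the 88 members, 9 higher and 2 lower. That is 12.5%, against 13.7% of all genes tested, 6.65% higher and 7.09% lower. A raw p under 0.05 was found for 24 members (28.4% of all genes), and in 10 the groups did not overlap (15.6% of all genes). At least 1.5-fold changes were called in 3 members (2.64% of all genes). The 2 lower genes were LINC00152 and LINC00346, described above. The 9 higher ones were LINC00028, GNAS-AS1, LINC00052, TP73-AS1, TTC28-AS1, LINC00085, LPP-AS2, LINC00460 and PCNA-AS1, of which LINC00028, LINC00052 and TTC28-AS1 fall outside the naming rule and were named after their values were seen. TP73-AS1 had 4.92, 4.77, 4.66 and 4.46 CPM with acetate against 3.09, 4.27, 3.00 and 2.94 CPM at 1 mM glucose. Every acetate library exceeded every 1 mM library, though 1 mM replicate 2 came near, and the log2 fold change was 0.50 ± 0.11 (adjusted p = 0.0099). LINC00052 averaged 4.44 ± 0.29 CPM with acetate and 2.89 ± 0.941 CPM at 1 mM (adjusted p = 0.032), with replicate 3 of 1 mM inside the acetate range. LINC00028 had the highest fold change, 2.28-fold, at 0.443 ± 0.0377 CPM with acetate and 0.192 ± 0.112 CPM at 1 mM (adjusted p = 0.034). Its counts were 12, 13, 11 and 11 with acetate and 2, 8, 6 and 3 at 1 mM, where no library reached 10. It thus passed the count minimum only through the groups where it is higher, and its acetate call was lost in 7 of 21 alternatives.

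PCNA-AS1, LPP-AS2 and LINC00085 rose with acetate by 0.26, 0.37 and 0.37 on the log2 scale, beside 1.27, 1.34 and 0.96 for glucose. The 2 comparisons share the 1 mM libraries. No sense gene was called in a pair whose antisense gene was called for acetate, but TP73 and PCNA came close. They changed by 0.44 and 0.24 on the log2 scale (adjusted p = 0.052 and 0.055). TTC28, LPP and GNAS changed by 0.32, 0.28 and 0.05 (adjusted p = 0.24, 0.28 and 0.68). The ratios of LPP-AS2 to LPP and of TP73-AS1 to TP73 changed by 0.08 each (exact permutation p = 0.714 and 0.857). Of the 9 members that rose, TP73-AS1 kept its call in all 22 alternative fits, although its 1.41-fold change is under the 1.5-fold minimum, and the other 8 lost theirs in 4 to 14 of them. The count of calls depended on single libraries. It was 3 without replicate 1 and 4 without replicate 4 of 1 mM glucose, 6, 5 and 7 without replicates 2, 3 and 4 of acetate, and 3 where only the 8 libraries compared were fitted.

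**Figure D4:**
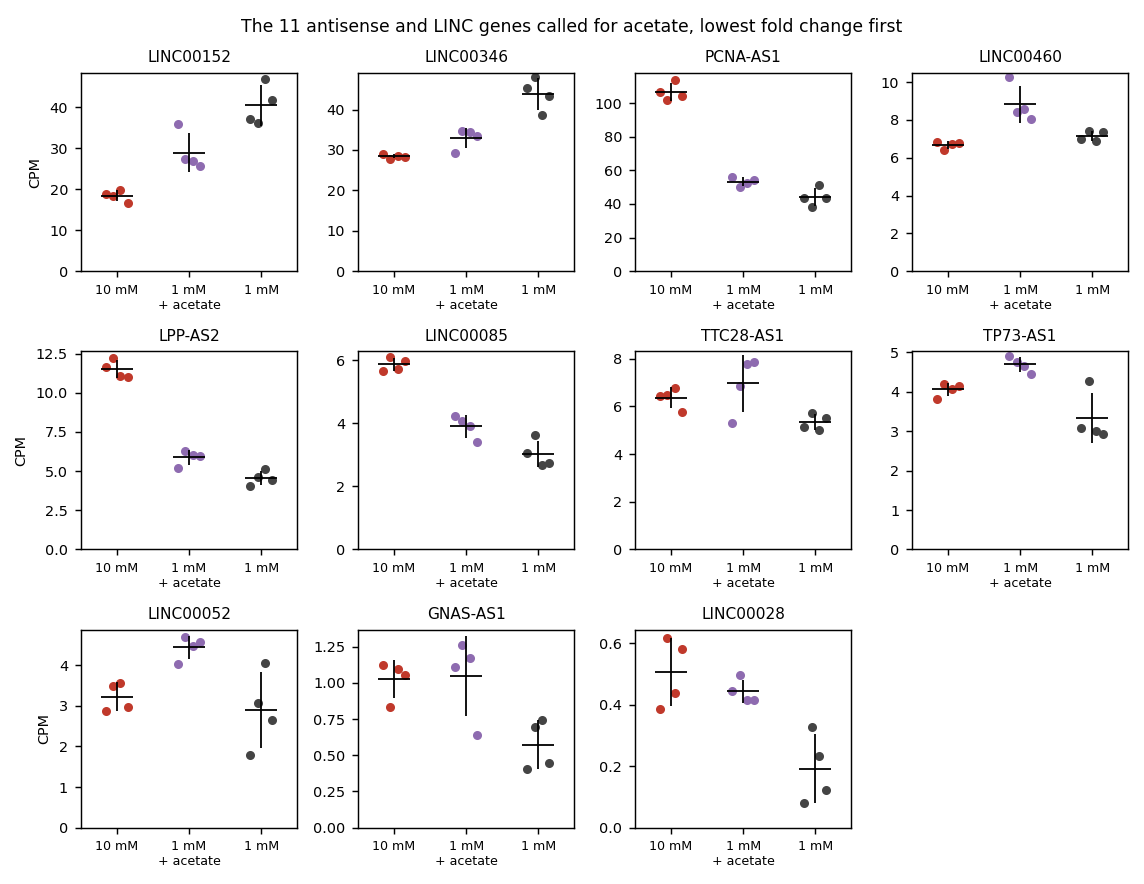
Level in each library (points, CPM on a linear axis) with the group mean and SD (black bars) of the 11 members called for acetate, from the lowest to the highest log2 fold change; each panel has 10 mM glucose, 1 mM glucose with acetate and 1 mM glucose from left to right. LINC00152 and LINC00346 are lower with acetate than at 1 mM glucose and lowest at 10 mM glucose, and LINC00460, LINC00052, TP73-AS1, TTC28-AS1 and, by a small margin, GNAS-AS1 have a higher mean with acetate than in either other group.

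Between 10 mM glucose and 1 mM glucose with acetate, which also tests whether the other comparisons differ, 50 members were called, 23 higher and 27 lower at 10 mM. Called were 56.8% of the members and 62.8% of all genes, 31% higher and 31.8% lower. At least 1.5-fold changes were called in 33 members (25.5% of all genes), and in 51 members the groups did not overlap (61% of all genes). With library totals the split was 32 higher and 22 lower. Among the acetate-called members, LINC00152 and LINC00346 were lower at 10 mM glucose than with acetate, by 0.65 and 0.22 (adjusted p = 0.00013 and 0.016, the second 0.173 with library totals), and LPP-AS2, PCNA-AS1 and LINC00085 were higher, by 0.97, 1.00 and 0.59. LINC00460 and LINC00052 were lower at 10 mM than with acetate, by 0.40 and 0.46 (adjusted p = 0.00061 and 0.029), and the LINC00052 call was lost in 6 of 22 alternatives. For TP73-AS1, GNAS-AS1, LINC00028 and TTC28-AS1 the difference between 10 mM glucose and acetate did not pass the test (adjusted p from 0.11 to 0.92).

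Other long noncoding RNAs and the decay machinery that acts on such transcripts were described by lists. The counts of each list stand beside the shares over all genes tested. These were 33.7% higher and 33.8% lower at 10 mM glucose, and 6.65% higher and 7.09% lower with acetate. Of 23 tested noncoding genes with other names, 7 were higher and 12 lower at 10 mM glucose, with a median log2 fold change of -0.36, against 0.00 for all genes. MIR22HG fell by 2.78 (10.5 CPM at 10 mM and 72.6 CPM at 1 mM, adjusted p = 1.9e-12), SOX2-OT, which overlaps SOX2, rose by 2.15 (21.9 CPM and 4.93 CPM, adjusted p = 4.1e-12) beside a rise of 2.40 in SOX2 (75.4 CPM and 14.3 CPM, adjusted p = 4.9e-13), and MIR100HG fell by 1.28 (33.6 CPM and 81.4 CPM, adjusted p = 3.1e-10). The snoRNA hosts GAS5 and SNHG5 in this list fell by 1.43 and 0.91, while SNHG1 and SNHG12 were not called, at 0.00 and -0.12; these 4 were chosen after their values were seen. With acetate 2 of the 23 were higher and 2 lower, including MIR22HG, which fell by 0.89 (adjusted p = 1.3e-05). Among 21 genes of the nuclear RNA exosome and its adaptors, which degrade many noncoding transcripts, 2 were higher and 8 lower at 10 mM glucose, led by ZCCHC7 (-1.03), ZCCHC8 (-0.81) and PAPD7 (0.46), with a list median of -0.08. Among 17 factors of nonsense-mediated decay, which removes many spliced host transcripts, 7 were higher and 2 lower, led by CASC3 (-0.49), UPF3B (0.58) and MAGOH (-0.75), with a median of 0.09. For acetate these 2 lists had 1 call each, EXOSC6 and SMG8, both lower.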

How the data were processed

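Per the labels, total RNA of LN229 cells was extracted with Trizol and sequenced from libraries made by standard Illumina protocols. The authors deposited whole-number counts for 34917 RefSeq transcripts per library, with no normalization. The submitters' processing notes name the build hg19. The aligner, the counting program and whether strand was used are each not given in the sources used here. The deposited tables also mark 1 transcript for 20895 of 22257 genes. The marked transcript stood for its gene, and otherwise the one with the highest total, and the same 89 members resulted from the highest total for every gene or from choosing NR_ transcripts first.

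After filterByExpr and TMM scaling, the quasi-likelihood F test of edgeR 4.0.16 (in R 4.3.3) was run on all 12 libraries, with 1 mean per group. A gene was called where its Benjamini-Hochberg adjusted p over the 14416 genes was under 0.05. The common biological coefficient of variation was 8.51%. The procedure was also run on simulated data in which only some genes of low level changed. That run does not test the scaling where many genes change, as they do here. CPM use the TMM-scaled library sizes, with the SD over the 4 libraries, and SE come from the F statistic. Nothing says that the 4 replicates are separate cultures, and a p-value then covers just how far these samples scatter, which may be technical. Ratios are log2((antisense count + 0.5)/(sense count + 0.5)), compared by a two-sided exact permutation test without adjustment.

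The rule for naming took the 12 highest and 12 lowest called members for glucose, and 6 each for the other comparisons. These needed a mean of at least 1 CPM and groups that do not overlap. The 10 most abundant members, a short fixed list, the sense genes, and the 3 smallest p of each list were added. Members and lists were chosen with earlier results of these data known. Names, promoters and microRNAs came from RefSeq GRCh38.p14, and exons and lengths from GENCODE v29 on GRCh38. Only the windows shown have coordinates, because that build is not the build of the counts.

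The alternatives tried were scaling by library totals or by the size factors of DESeq2 1.42.0, its Wald test, limma-voom (limma 3.58.1), no filter, a mean of 1 CPM, the replicate block, the highest transcript, fits of the 8 libraries compared, a 1.5-fold minimum and leaving out libraries.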

Additional observations from a re-analysis of the deposited data

Results flagged for a closer look

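In 111 groups of 4 libraries, made of the named members' levels and the members' share of counts, 4 held a library far from the other 3 by Dixon's criterion. Chance alone gives about 1 in 20. LINC00473 had 2.77 CPM in replicate 1 of acetate, where the other 3 acetate libraries had 5.41 to 5.57 CPM. TP73-AS1 had 4.27 CPM in replicate 2 of 1 mM glucose, where the other 3 had 2.94 to 3.09 CPM. BDNF-AS1 had 5.62 CPM in replicate 1 of 1 mM glucose, where the others had 4.02 to 4.28 CPM, all of them above every library of 10 mM glucose. FBXO22-AS1 had 40.1 CPM in replicate 1 of acetate, where the others had 34.97 to 35.8 CPM. Replicate 1 of acetate, which holds 2 of the 4, is also 1 of the 2 libraries that stood apart on the second principal component. What part that library has in these values was not tested beyond leaving it out.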

How the results depend on the processing

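The counts of members called for glucose and for 10 mM glucose against acetate stayed within 1.5 times of the reported 57 and 50 under every alternative but 1, the 1.5-fold minimum, which left 33 called between 10 mM glucose and acetate. Leaving out single libraries gave 48 to 60 members called for glucose, 46 to 55 for 10 mM glucose against acetate, and 3 to 12 for acetate. For acetate the 11 calls became 3 with only the 8 libraries compared and 3 with the 1.5-fold minimum; they became 15 without the 2 libraries that stood apart. The causes were not tested, apart from the fewer libraries or the fold minimum themselves. Library totals kept the counts, at 59, 12 and 54, but moved the split, as given above. With the replicate number as a block the counts were 56, 10 and 47. Same-numbered libraries had correlations of -0.36 to 0.27, and 5 of 12 correlated best with their own number, so the numbers were not read as pairs. With the highest transcript for every gene, another transcript stands for TRAF3IP2-AS1. It was then not called for glucose (0.00798, adjusted p = 0.955) and turned round for 10 mM glucose against acetate, to 0.33 (adjusted p = 0.023). The named members had 788 alternative values per comparison. Apart from those values of TRAF3IP2-AS1, 14 lost a call for glucose, 61 for acetate and 8 for 10 mM glucose against acetate. In the same order, 5, 11 and 13 gained one. FBXO22-AS1 lost its glucose call with library totals and without 1 library of 10 mM or 1 of 1 mM glucose, as given above. Of 210 alternative values of the ratios, 18 lost the smallest p when 1 library was left out, and 1 gained it. Depth limits the members near 10 counts a library, such as MRPL23-AS1.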
